A study of Homo sapiens with 30 samples.

Results

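A set of 9 genes of the epithelial tight junction was followed through the chromatin of MDA-MB-231 cells, an established human triple-negative breast cancer line. They are the claudins CLDN1, CLDN3, CLDN4, CLDN7 and CLDN12, occludin (OCLN), the junctional adhesion molecule F11R, and the scaffold proteins TJP1 and CGN. The list was chosen by gene name with earlier results of the same libraries in view, from CLDN1, which the study followed, and other genes of the junction. It holds 9 of the 20098 protein-coding genes annotated on the autosomes and chromosome X. Because the choice used the promoter peaks and their change after SAP30 knockout, every peak value below is a description and carries no test.

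Tight junctions seal the space between neighbouring epithelial cells close to their apical surface. Claudins and occludin span the membrane and form the strands that decide which ions and molecules can pass between cells. F11R, also called JAM-A, is an immunoglobulin-type adhesion protein of the same contact. TJP1, also called ZO-1, and CGN, or cingulin, lie beneath the membrane and tie the strands to actin and myosin. When carcinoma cells take on a mesenchymal state, as MDA-MB-231 cells have, expression of many junction genes is lost, and repressors of the ZEB and SNAI families bind short E-box sequences in the promoters of such genes.

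The study asked where SAP30, which belongs to the SIN3 corepressor, is bound in these cells and what its knockout does to promoters. Chromatin immunoprecipitation sequencing (ChIP-seq) was performed for SAP30, SIN3A and SIN3B, the scaffold proteins of the complex, in unmodified MDA-MB-231 cells, called parental here. H3K4me3 and H3K9Ac, histone marks of active promoters, and RNA polymerase II (Pol II) were profiled in the parental line and in SAP30-KO1, a CRISPR/Cas9 knockout line that the study's methods describe as a mix of single-cell clones. Each of the 9 groups had 2 libraries, which the labels number without saying whether they came from separate cultures, while 8 input and 4 histone H3 samples were not analysed here. The labels give the same culture conditions for all samples and name no drug.

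Each of the 18 libraries has its own list of peak summits, each a single base with the maximum of a called peak, scored by the −log10 of a q-value. The lists held 10861 to 54622 summits. A score depends on the depth and enrichment of its library, which are unknown here, and the highest score was 588.5 and 705.3 in the parental Pol II lists but 313.9 and 383.8 in those of SAP30-KO1. Peaks were therefore compared by rank within their own list, from 0% for the best score to 100% for the worst. A promoter peak is the best-scored summit within 1000 bp of an annotated start site of a basic transcript. An absent peak means that no summit reached the caller's threshold at this depth, not that the protein or mark is absent. The SAP30 gene itself had a promoter peak in all 4 libraries each of H3K9Ac, H3K4me3 and Pol II, so these lists do not show the knockout. Of the luminal epithelial marker genes, 3 of 9 had a Pol II promoter peak in both parental libraries. They were EPCAM, and KRT8 and KRT18, whose start sites share a peak at 4.17% and 3.19%. The adhesion gene CDH1 had none in any of the 4 Pol II lists. Of the mesenchymal markers, 6 of 8 had one, led by VIM at ranks of 0.26% and 0.304%, while TWIST1 and SPARC had none. None of the 3 measured markers of other lineages had one.

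In the coordinates of GRCh37 (hg19), CLDN1 lies on the minus strand at chr3:190023496-190040235 with 1 start site. CLDN3 (chr7:73183327-73184600, minus strand) and CLDN4 (chr7:73213872-73247020, plus strand) are neighbours, with 1 and 3 start sites. CLDN7 occupies chr17:7163222-7167302 on the minus strand and CLDN12 chr7:90013035-90142716 on the plus strand. OCLN occupies chr5:68788119-68853931 on the plus strand, with 8 start sites. TJP1 spans chr15:29991571-30261118 on the minus strand, a length of 269548 bp with 7 start sites. F11R lies at chr1:160965001-160991133 on the minus strand and CGN at chr1:151482986-151511168 on the plus strand. CLDN7 and F11R share their DNA with annotated readthrough transcripts of neighbouring genes. CLDN12 and TJP1 have the start of a long noncoding RNA within 1000 bp of a start site. The start region of OCLN lies inside another annotated gene, ENSG00000249295. The annotated span of CLDN16 begins at chr3:190040330, within 1000 bp of the CLDN1 start site, although no CLDN16 start site used here lies that close. Peaks at these promoters cannot be assigned to 1 gene alone.

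The sequences of the 250 bases before each canonical start site were not used to choose the genes. Their GC content ran from 54.4% in CLDN12 to 76% in CGN, against a median of 63.2% over 20094 protein-coding promoters. CG dinucleotides, the sites of DNA methylation, numbered 32 in CGN, 28 in CLDN1 and 27 in TJP1, against a median of 18. CLDN4 had 4, fewer than any of the other members, and 16.1% of all promoters had fewer still. The windows of CLDN1 and CLDN3, the pair of members with no Pol II peak in any library, are shown with each CG in capitals. They hold 28 and 19, so neither is poor in CG.

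CLDN1, chr3:190040236-190040485, minus strand: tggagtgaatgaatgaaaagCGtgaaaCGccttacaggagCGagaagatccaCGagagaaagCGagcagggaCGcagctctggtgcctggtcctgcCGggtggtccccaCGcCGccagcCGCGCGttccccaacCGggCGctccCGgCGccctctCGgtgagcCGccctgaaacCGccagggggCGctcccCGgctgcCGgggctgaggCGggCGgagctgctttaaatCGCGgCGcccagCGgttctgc
CLDN3, chr7:73184601-73184850, minus strand: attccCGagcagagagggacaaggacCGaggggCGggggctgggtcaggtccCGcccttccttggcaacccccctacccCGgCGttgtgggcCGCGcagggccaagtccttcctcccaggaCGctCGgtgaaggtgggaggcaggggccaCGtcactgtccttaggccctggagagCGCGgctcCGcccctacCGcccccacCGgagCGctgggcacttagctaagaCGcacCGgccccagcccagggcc

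The same windows were searched on both strands for the letters CAGGTG, which read CACCTG from the other strand, the E-box of the ZEB and SNAI type. It was present in 3 of the 9 genes, with 4 copies in CLDN7, 3 in F11R and 1 in OCLN, and in 17.4% of the 20094 promoters. The letters GGGCGG, or CCGCCC from the other strand, the GC box bound by SP1-type factors, were present in all members but CLDN12 and OCLN and in 58.6% of promoters. TATAAA, or TTTATA from the other strand, the TATA box, was present in none of the 9 windows and in 9.42% of promoters. In the 9 windows no motif overlapped another, apart from a pair of GC boxes in CGN that share 1 base. The E-boxes are shown in stretches of 30 bases with the motif in capitals. Whether they bear on what the SAP30-KO1 lists show at these promoters was not tested. In CLDN7 a pair of E-boxes lies within the last 20 bases before the canonical start site, which is downstream of the start sites at chr17:7166264 and chr17:7166532 where most peaks of this gene lay. A match in letters does not show that a factor binds.

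CLDN7, chr17:7165954-7165983, minus strand: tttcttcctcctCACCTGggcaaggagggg
CLDN7, chr17:7165915-7165944, minus strand: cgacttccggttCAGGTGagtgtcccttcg
CLDN7, chr17:7165798-7165827, minus strand: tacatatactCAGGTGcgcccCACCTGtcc
OCLN, chr5:68788472-68788501, plus strand: tctaggacgcagCAGGTGggactcgcggcg
F11R, chr1:160991163-160991192, minus strand: cgtCACCTGctgaaggtgcggaattcgtct
F11R, chr1:160991056-160991085, minus strand: gcggcggggtaaCACCTGgccgaggtgact
F11R, chr1:160990944-160990973, minus strand: cgggcggggttcCACCTGgcggctggctct

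Across the 9 genes and 18 lists, a promoter peak was present in 121 of 162 combinations. TJP1 had one in all 18 lists, CLDN12 in 17, OCLN in 16, and CLDN4, CLDN7 and CGN in 15 each. CLDN1 had one in 11 lists, F11R in 10 and CLDN3 in 4. The genes thus ranged from the scaffold gene TJP1, with a peak of everything measured, to CLDN3, with H3K4me3 in both parental libraries and otherwise single libraries. Of the 121 summits, 96 lay downstream of the nearest start site and 25 upstream, at a median distance of 153 bp. The member closest to the edge of the window on the inside was CLDN4, with an H3K9Ac summit 937 bp from the start in SAP30-KO1 replicate 2. The closest outside was CLDN7, with a Pol II summit 1050 bp away in SAP30-KO1 replicate 1, counted below as no peak.

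**Figure D1:**
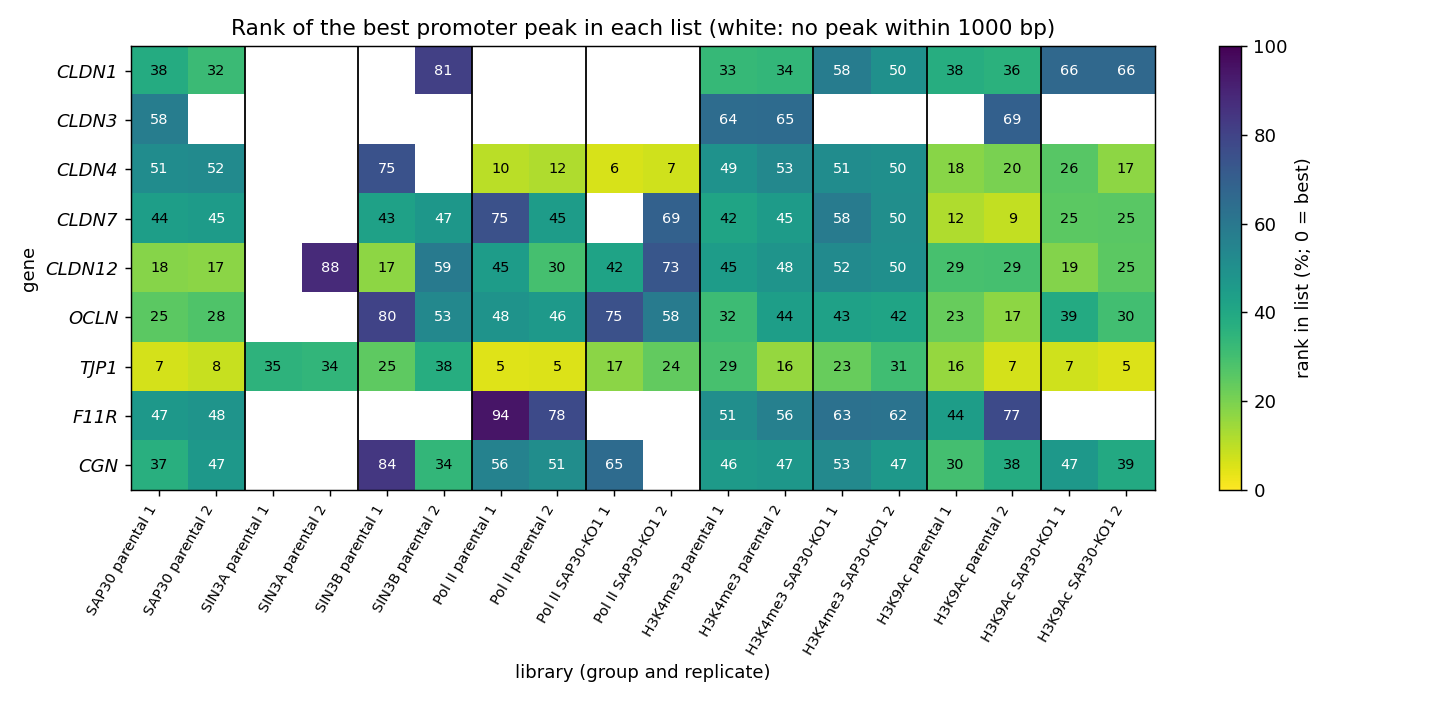
Rank of the best promoter peak of each gene (rows) in each of the 18 lists (columns, 2 replicate libraries per group), as a percentage of the list with 0 the best score, rounded to whole percent. White cells have no summit within 1000 bp of a start site. TJP1 is filled in all 18 lists and CLDN3 in 4, and the 2 SIN3A columns are filled for TJP1 and, in replicate 2, CLDN12.

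SAP30 had a promoter peak in both parental libraries at 8 of the 9 genes, all but CLDN3, and at 61.2% of all protein-coding genes. SIN3B was present in both libraries at 5 genes (CLDN7, CLDN12, OCLN, TJP1 and CGN), against 51.7% of all genes. SIN3A was present in both libraries at TJP1 only, against 31.5% of all genes. These counts move with list length, since the SAP30 lists held 35001 and 35007 summits and the SIN3A lists 11115 and 10861. With the SAP30, SIN3A and SIN3B lists limited to the length of the shortest of them, SAP30 was present in both libraries at 3 members, SIN3B at 1 and SIN3A at 1. With only the annotated 5′ end of each gene they were 4, 1 and 0. In parental cells Pol II was present in both libraries at 7 genes (57.7% of all genes), H3K4me3 at 9 (63.8%) and H3K9Ac at 8 (61.4%). In SAP30-KO1, 4 genes had Pol II in both libraries (53.9%), 8 had H3K4me3 (62.8%) and 7 had H3K9Ac (61.1%). Where they had peaks, the median rank of the members was worse than that of all promoters in every group but SIN3A, whose 3 peaks had a median of 35.3% against 37.1%. The median SAP30 rank of their peaks was 38.3%, against 17.4% for the promoter peaks of all protein-coding genes, and for SIN3B it was 50.1% against 21.3%. In parental cells the Pol II medians were 45.4% and 25.9%, those of H3K4me3 45.4% and 25.2%, and those of H3K9Ac 29% and 12.3%.

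**Figure D2:**
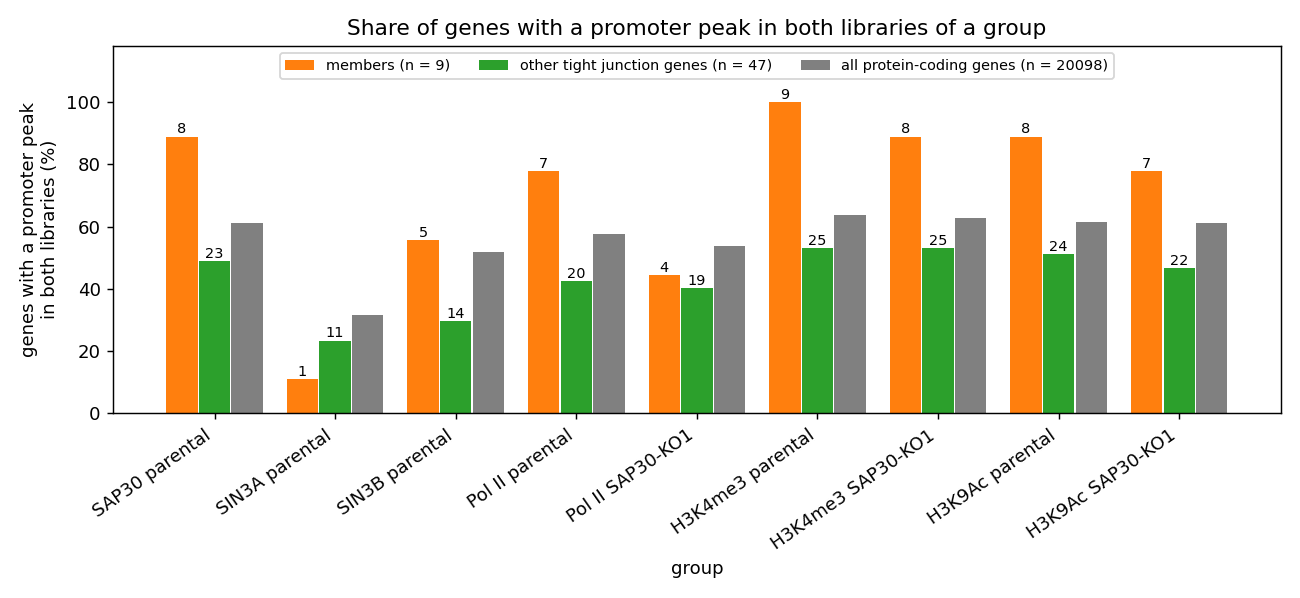
Percentage of genes with a promoter peak in both libraries of each group, for the 9 members, 47 other tight junction genes and all 20098 protein-coding genes. Numbers above the orange and green bars are gene counts. SIN3A stands at 1 member, and Pol II at 7 members in parental cells and 4 in SAP30-KO1.

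Ordered by SAP30 rank, TJP1 came first at 6.54% and 8.33% in replicates 1 and 2. CLDN12 followed at 18.3% and 17.2%, and OCLN at 25.2% and 27.6%. These 3 genes did not overlap each other or any other member. CLDN1 stood at 38.3% and 31.8% and CGN at 37% and 46.7%, so this pair overlapped. CLDN7 at 44.1% and 45.1% lay within the span of CGN, while F11R at 46.8% and 48.1% and CLDN4 at 51.4% and 52.3% came after it. CLDN3 had a SAP30 summit in replicate 1 alone, at 57.7%.

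SIN3A at TJP1 ranked 35.3% and 34%, with summits 5 and 3 bp upstream of the start site at chr15:30113751. Replicate 1 had another summit at the same rank of 35.3%, upstream of the canonical start at chr15:30114671. SIN3A was also listed 228 bp downstream of the canonical start in replicate 1, at 41.1%, and 160 bp downstream in replicate 2, at 73.4%. These weaker summits lay close to those of SAP30, which were 106 and 160 bp downstream of the canonical start. The only other gene with a SIN3A promoter peak was CLDN12, in replicate 2, at 88.2%. SIN3B at CLDN7 ranked 42.7% and 47%. At TJP1 its best-scored summits ranked 24.7% and 37.8% but lay at different places. They were 861 bp downstream of the canonical start in replicate 1 and 424 bp upstream in replicate 2. Replicate 2 also had a SIN3B summit 876 bp downstream, at 58.6%, far from the 24.7% of replicate 1. The SIN3B replicates were far apart in rank at CLDN12 (17.1% and 58.6%), OCLN (79.9% and 53.2%) and CGN (83.8% and 33.8%) as well. At CLDN1 a SIN3B summit was listed in replicate 2 alone (80.9%) and at CLDN4 in replicate 1 alone (74.9%). F11R and CLDN3 had no summit of SIN3A or SIN3B.

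CLDN1, a claudin of the main sealing strands, carried SAP30, H3K4me3 and H3K9Ac at its only start site but no Pol II. The nearest Pol II summit was 191414 and 64056 bp away in the parental lists and 191345 and 191378 bp away in those of SAP30-KO1. Its SAP30 summits lay 173 and 36 bp downstream of the start site, inside exon 1 as did every other summit of this promoter. H3K4me3 ranked 33.2% and 33.9% in parental libraries and 58.2% and 49.8% in SAP30-KO1, with no overlap and a change in the mean of 20.4 percentage points. H3K9Ac ranked 37.5% and 36.1% in parental libraries and 66.4% in both of SAP30-KO1, a change of 29.6 points. Ranked among genes with a peak in all 4 libraries, H3K9Ac went from 94% and 92.5% to 98.3% and 99%, a change of 5.43 points close to the end of that scale. On the same scale H3K4me3 changed by 22.3 points. The median change of genes within 5 Mb was 3.23 points for H3K4me3 and 0.438 for H3K9Ac. CLDN1 thus had worse ranks in both marks, while no Pol II peak was listed in either line. With other assays, the study reported SIN3A and SIN3B at CLDN1 by ChIP and quantitative PCR, with less of both after SAP30 knockout. It also reported less CLDN1 mRNA in the knockout.

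CLDN3, another sealing claudin, had the fewest peaks of the 9 genes. H3K4me3 was present in both parental libraries, at 64.5% and 65.1%, and in neither SAP30-KO1 library, whose nearest summits were 31637 and 30998 bp away at another gene, ABHD11. H3K9Ac was listed in parental replicate 2 alone, at 69.4%. The nearest Pol II summit of any of the 4 lists was 31109 bp away.

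CLDN4, the neighbour of CLDN3 and a claudin that limits the passage of sodium, was the one member with a better Pol II rank in SAP30-KO1. Pol II ranked 10.5% and 11.9% in parental libraries and 6.2% and 7.17% in SAP30-KO1, a change of -4.5 points against a median of 3.24 for genes within 5 Mb. Among genes with a peak in all 4 libraries the change was -9.88 points. All 4 Pol II summits lay within 25 bp of the canonical start site. H3K4me3 overlapped, at 49.1% and 53.4% in parental libraries and 51.3% and 50% in SAP30-KO1. It was better in SAP30-KO1 with the 4 lists limited to the length of the shortest and when ranked among genes with a peak in all 4 libraries, where 89% and 91.1% became 84.6% and 88%. H3K9Ac overlapped as well, with 17.6% and 20.2% against 25.9% and 16.8%. A window of 500 bp leaves out the H3K9Ac summits 837 to 937 bp downstream, and with it both SAP30-KO1 ranks were worse than both parental ranks. That call compared different places, since the best parental summits then lay at the other start sites and those of SAP30-KO1 near the canonical one. Within 500 bp of the canonical start, H3K9Ac ranked 57.5% and 48.4% in parental libraries and 54% and 50.6% in SAP30-KO1, which overlap. Around the other start sites of the gene, at chr7:73241976-73243844, H3K9Ac ranked 40.5% and 42.9% in parental libraries and 77.1% and 67.5% in SAP30-KO1. The mark was thus worse there in SAP30-KO1, while SAP30 itself ranked 94.3% and 87%.

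CLDN7, a claudin common in glandular epithelia, had the best H3K9Ac ranks among the 5 claudins in parental cells, at 12% and 9.04%. In SAP30-KO1 these were 25.2% and 25.4%, a change of 14.8 points with no overlap. Among genes with a peak in all 4 libraries, the change in H3K9Ac was 38.4 points. SAP30 was listed at 2 places in both replicates, at 44.1% and 50.8% downstream of the canonical start and at 47.2% and 45.1% near chr17:7166532. H3K4me3 moved the same way as H3K9Ac, from 41.6% and 45.3% to 58.3% and 50.5%. Pol II was listed in both parental libraries, at 75% and 44.8%, and within the window in SAP30-KO1 replicate 2 alone, at 69%. With a window of 3000 bp Pol II was worse in SAP30-KO1, but that call rests on the window's edge, which takes in a parental summit of the region chr17:7168119-7170624 and leaves out those of SAP30-KO1. Over that whole region Pol II ranked 38.8% and 22.1% in parental libraries and 29.9% and 13.9% in SAP30-KO1, which overlap.

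CLDN12 is an atypical claudin that lacks the scaffold-binding tail of the others. Its H3K9Ac rank was better in SAP30-KO1, at 18.7% and 25.3% against 29% and 29.3%, the only member for which this mark moved that way without overlap. Among genes with a peak in all 4 libraries the change was -12.1 points, against -7.16 over the whole lists. The call was lost with a window of 500 bp, since the summit of parental replicate 2 lay 832 bp from the start. Its H3K4me3 ranks of 52.1% and 50.1% were worse than the parental 44.8% and 48.1% by 4.66 points, against 3.1 for genes within 5 Mb. Among the genes with a peak in all 4 libraries these became 84.9% and 86.2% in parental cells and 85.4% and 88.1% in SAP30-KO1, which overlap. Pol II replicates were far apart and the lines overlapped, at 44.9% and 29.6% against 41.9% and 73.2%. With the 4 lists limited to the length of the shortest, Pol II was worse in SAP30-KO1.

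OCLN encodes a 4-pass membrane protein of the MARVEL family that joins claudins in the strands. Pol II ranked 48.5% and 45.9% in parental libraries and 75.2% and 58.5% in SAP30-KO1, a change of 19.7 points. These ranks mix 2 places within the window. Both parental libraries listed Pol II near the canonical start (49.2% and 45.9%) and near 925 to 936 bp downstream (48.5% and 50.7%). In SAP30-KO1, replicate 1 had its only summit 40 bp downstream and replicate 2 had its only summit 940 bp downstream. Each place therefore lacked a peak in 1 SAP30-KO1 library. When ranked among genes with a Pol II promoter peak in all 4 libraries, the parental ranks were 86.8% and 90.9% and those of SAP30-KO1 97.6% and 88.1%, so the lines overlapped on that scale. H3K9Ac ranked 23.3% and 17.1% in parental libraries and 39% and 30.4% in SAP30-KO1, a change of 14.5 points with no overlap on either scale. H3K4me3 overlapped, at 31.5% and 43.8% against 42.9% and 41.5%. The 1000 bp on either side of its canonical start, like those of the other 8 genes, had no second alignment of 200 bp or more at 90% identity elsewhere in the genome.

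F11R was the one member that lost the peaks of 2 marks in SAP30-KO1. Its Pol II peaks ranked 94.4% and 77.5% in parental libraries, weak in both, and the nearest Pol II summits in SAP30-KO1 were 24001 and 23606 bp away. H3K9Ac was listed at 44.5% and 77.4% in parental libraries and was nearest at 24158 and 24194 bp in SAP30-KO1. H3K4me3 was kept in all 4 libraries and ranked 50.7% and 56.5% against 62.8% and 61.9%, a change of 8.72 points. Ranked among genes with a peak in all 4 libraries, 90.3% and 93.2% against 93.1% and 95% overlapped. SAP30 was present in both libraries, 339 and 311 bp downstream of the start site at chr1:160990886, with no SIN3A or SIN3B summit.

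TJP1 had the best parental Pol II and SAP30 ranks of the 9 genes. Its Pol II ranks of 4.83% and 5.21% in parental libraries became 17.2% and 23.9% in SAP30-KO1, a change of 15.5 points while the median of genes within 5 Mb was -3.77. On the scale of genes with a peak in all 4 libraries they went from 9.82% and 11.8% to 38% and 47.9%. At these start sites neither histone mark separated the lines. H3K4me3 ranked 29% and 15.7% in parental libraries and 23.1% and 30.7% in SAP30-KO1, and H3K9Ac ranked 16% and 6.54% against 7.13% and 5.36%. TJP1 also has an upstream start site at chr15:30261118, far before the canonical one. There the marks moved in opposite directions, H3K4me3 by a narrow margin, and no Pol II summit was listed. H3K4me3 ranked 56.7% and 54% in parental libraries and 61.3% and 56.9% in SAP30-KO1, which is worse. H3K9Ac ranked 73% and 72.1% against 69.3% and 59.2%, which is better.

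CGN showed smaller shifts. H3K9Ac ranked 29.9% and 38.5% in parental libraries and 46.7% and 39.2% in SAP30-KO1, a change of 8.75 points. These ranks overlapped when the 4 lists were limited to the length of the shortest and, with a change of 0.17 points, when only the annotated 5′ end was used. Among genes with a peak in all 4 libraries the change was 3.29 points. H3K4me3 overlapped, at 45.6% and 47.2% against 52.8% and 46.6%. Pol II was listed at 55.6% and 51.1% in parental libraries and in SAP30-KO1 replicate 1 alone, at 65%.

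**Figure D3:**
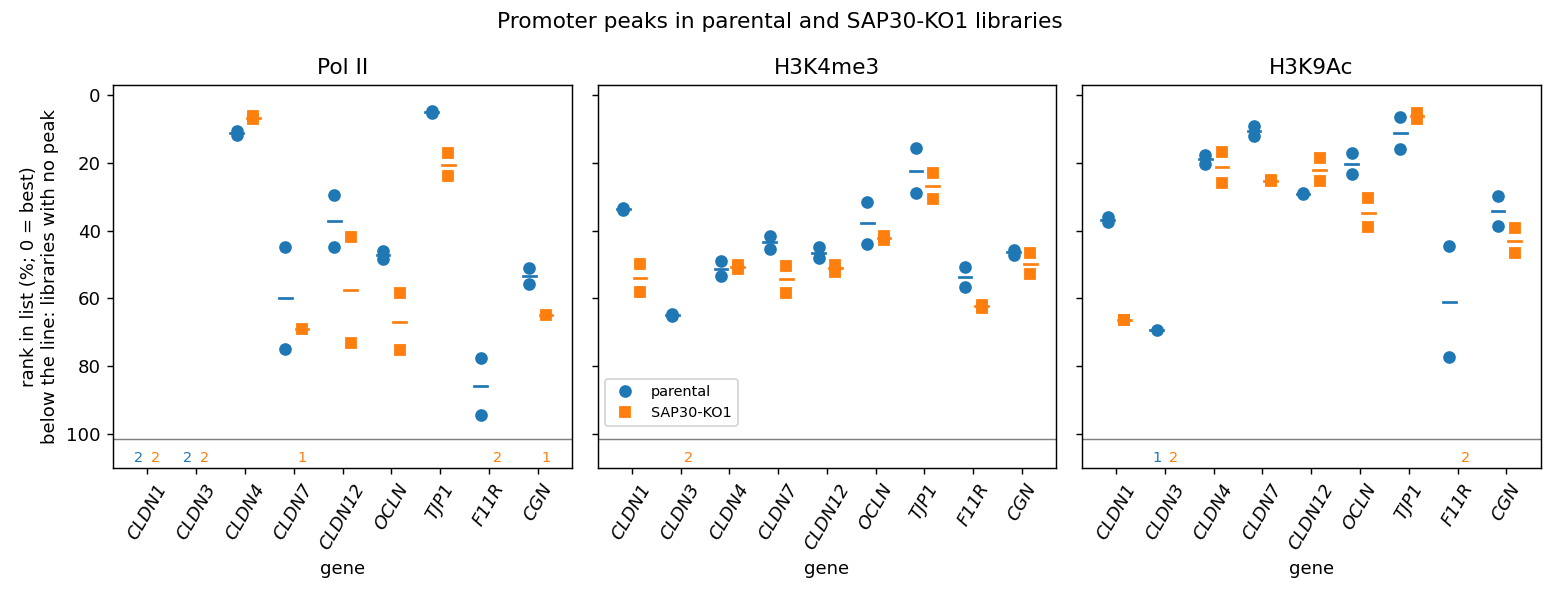
Rank in list of the best promoter peak (vertical axis, percent, 0 the best and at the top) of each gene for Pol II, H3K4me3 and H3K9Ac. Circles are parental and squares SAP30-KO1 libraries, short lines are means, and the figures beneath the grey line count the libraries with no peak. CLDN1 stands apart in H3K4me3 and H3K9Ac, and TJP1 in Pol II. The Pol II ranks of OCLN also separate, but they mix 2 places within its window. F11R has no Pol II or H3K9Ac peak in SAP30-KO1.

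Counted over the genes, the Pol II rank was worse in both SAP30-KO1 libraries at 2 of the 4 members with a peak in all 4 libraries (TJP1 and OCLN) and better at 1 (CLDN4). Among the 10706 protein-coding genes with such peaks, 24.2% were worse and 15.4% better. One member, F11R, lost its Pol II peak and none gained one, while 2.21% and 0.221% of the 12200 genes with a peak in any of the 4 lists lost and gained one. H3K4me3 was worse at 4 of 8 members (CLDN1, CLDN7, CLDN12 and F11R) and better at none, against 28.1% and 11.5% of 12531 genes. One promoter, that of CLDN3, lost H3K4me3 and none gained it, against 1.4% and 0.16% of 13146 genes. H3K9Ac was worse at 4 of 7 members (CLDN1, CLDN7, OCLN and CGN) and better at 1 (CLDN12), against 22.1% and 16.4% of 12048 genes. It was lost at F11R and gained at none, against 0.652% and 0.507% of 13030 genes. Since the genes were chosen with this contrast known, nothing is read from these counts against the background. Libraries of 2 against 2 cannot reach an exact permutation p below 0.33.

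The members' median change in rank was 17.6 points in Pol II (4 genes), 4.61 points in H3K4me3 (8 genes) and 8.75 points in H3K9Ac (7 genes). Over all genes with a peak in all 4 libraries the medians were 1.48, 2.09 and 0.309. The Pol II median came from changes of -4.5 (CLDN4), 15.5 (TJP1), 19.7 (OCLN) and 20.3 points (CLDN12, where the lines overlapped). Ranked among genes with a peak in all 4 libraries, the Pol II changes of CLDN4, OCLN and TJP1 were -9.88, 4 and 32.1 points, and CLDN12 overlapped there too. As with the counts, nothing is read from these medians against the background. The genes did not all move alike. By rank in the whole lists, F11R lost Pol II and H3K9Ac and was worse in H3K4me3, and CLDN3 lost H3K4me3. CLDN1 and CLDN7 were worse in both histone marks, OCLN in Pol II and H3K9Ac, CGN in H3K9Ac and TJP1 in Pol II alone. CLDN4 was better in Pol II, and CLDN12 was better in H3K9Ac but worse in H3K4me3. Ranked among genes with a peak in all 4 libraries, OCLN in Pol II and F11R and CLDN12 in H3K4me3 overlapped. On that scale CLDN4 was better in H3K4me3 too. In bulk chromatin of a mixed clone population, fewer cells carrying a peak and a weaker peak in every cell cannot be told apart.

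**Figure D4:**
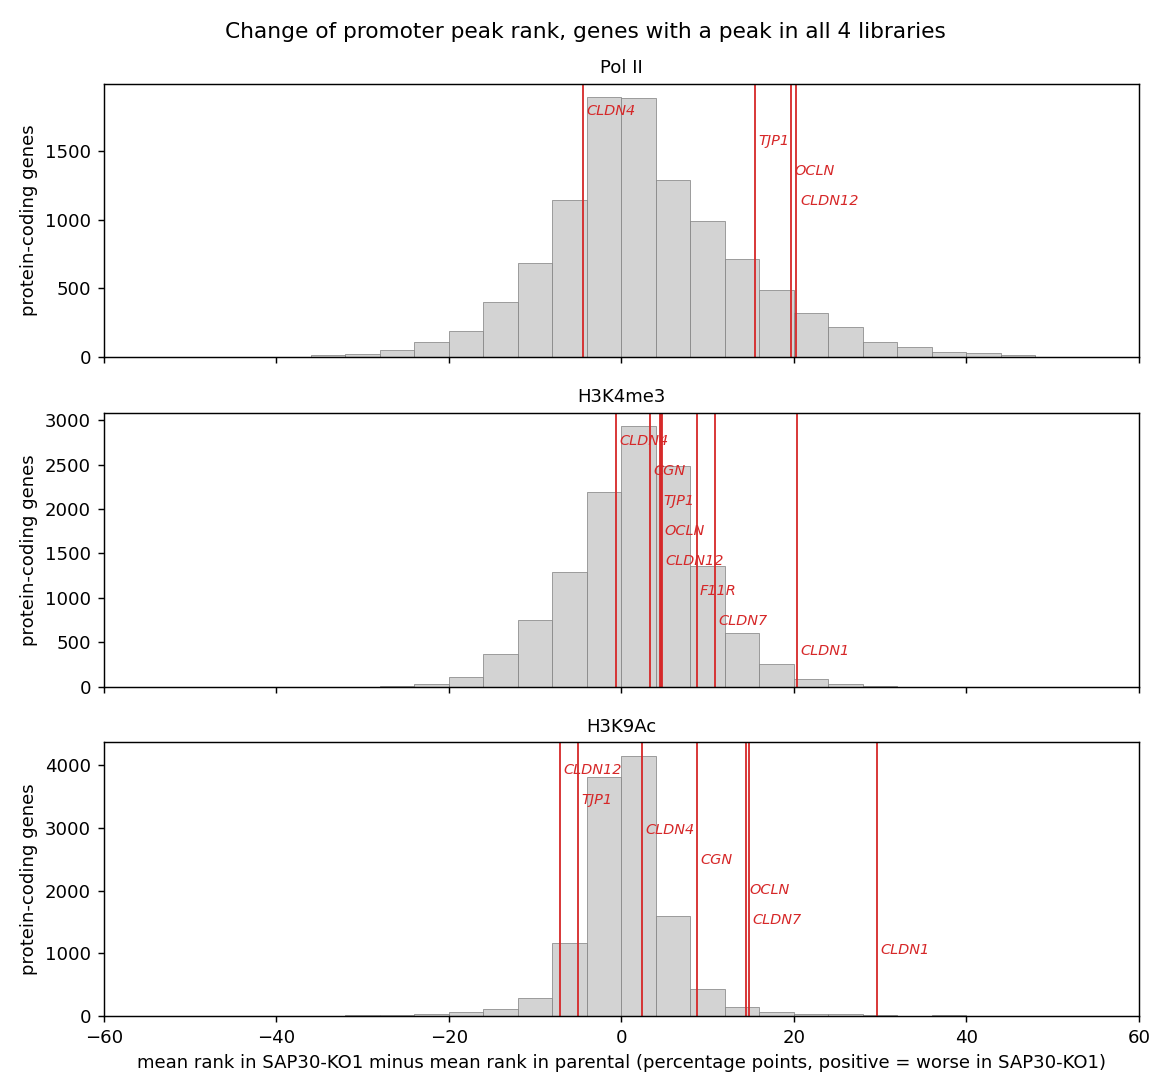
Mean rank in SAP30-KO1 minus mean rank in parental libraries (horizontal axis, percentage points, positive is worse in SAP30-KO1) for protein-coding genes with a promoter peak in all 4 libraries (grey histograms, bins of 4 points, vertical axis the number of genes). Red lines mark the members, from -4.5 for CLDN4 to 20.3 for CLDN12 in Pol II, and up to 29.6 for CLDN1 in H3K9Ac.

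Away from promoters, summits of the 18 lists were joined into regions where neighbours lay within 1000 bp. Gene bodies of the members held 20 such regions, of which 6 had SAP30 in both libraries and 4 of these also H3K9Ac in both parental libraries. The flanks of 50 kb held 39 regions, 22 of them away from the start sites of other genes, and 7 of these had SAP30 in both libraries. None of the 20 body regions or these 22 flanking regions had SAP30 and SIN3A in both libraries, and 2 of the 22 had SAP30 and SIN3B. Regions were not counted around other genes, so these counts have no background share and show no trait particular to the members.

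OCLN had more lost peaks of this kind than any other member. Within intron 1, chr5:68793658-68794196 had H3K4me3 at 80.7% and 71.8% in parental libraries and none in SAP30-KO1. A region further along intron 1, chr5:68797715-68799169, had SAP30 at 46.7% and 48.7% and Pol II at 77.6% and 52.6% in parental libraries, and no Pol II in SAP30-KO1. It lies just before an alternative start site at chr5:68800004, and H3K9Ac there went from 30.2% and 49.5% to 95.6% and 62.7%. In intron 4, chr5:68816309-68816842 had SAP30 at 92.5% and 77.4% and H3K9Ac at 74.2% and 79.6% in parental libraries, with no H3K9Ac in SAP30-KO1. A second region of intron 4, chr5:68812671-68813407, lost H3K9Ac that had ranked 96.5% and 76.6%. In TJP1, chr15:30152129-30152221 lost H3K9Ac of 57.7% and 97.6%. All of these lost peaks had ranked beyond 50% of their parental lists. No region in the bodies or flanks away from other starts gained a mark in both SAP30-KO1 libraries. More losses than gains were also seen at the promoters of all protein-coding genes with a peak in any of the 4 lists. Losses and gains there were 2.21% and 0.221% for Pol II, 1.4% and 0.16% for H3K4me3, and 0.652% and 0.507% for H3K9Ac.

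CLDN1 had no summit in its gene body. Upstream of it, at chr3:190062715-190063772, inside the annotated gene CLDN16 and 42666 bp from the nearest protein-coding start of that gene, H3K9Ac was listed at 40.8% and 51.5% in parental libraries and 42.3% and 57% in SAP30-KO1. These overlap, unlike H3K9Ac at the CLDN1 promoter. CLDN4 was surrounded by regions that carried SAP30 and H3K9Ac, at chr7:73236687-73237474 in its gene body and at chr7:73264867-73267314, 9244 bp from the start of METTL27. In the latter, SAP30 ranked 33% and 41.9%, better than at the CLDN4 promoter, and H3K9Ac ranked 22.3% and 25.1% in parental libraries and 22.4% and 23.9% in SAP30-KO1. Before CGN, chr1:151445859-151446067, 13993 bp from the start of POGZ, had H3K9Ac at 23.3% and 19.8% in parental libraries and 34.1% and 29.5% in SAP30-KO1, and H3K4me3 at 54.4% and 55.3% against 65.2% and 64.9%. After CGN, inside TUFT1, chr1:151518740-151522277 had SAP30 at 25.5% and 23.5% with SIN3B at 19.3% and 63.7%.

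**Figure D5:**
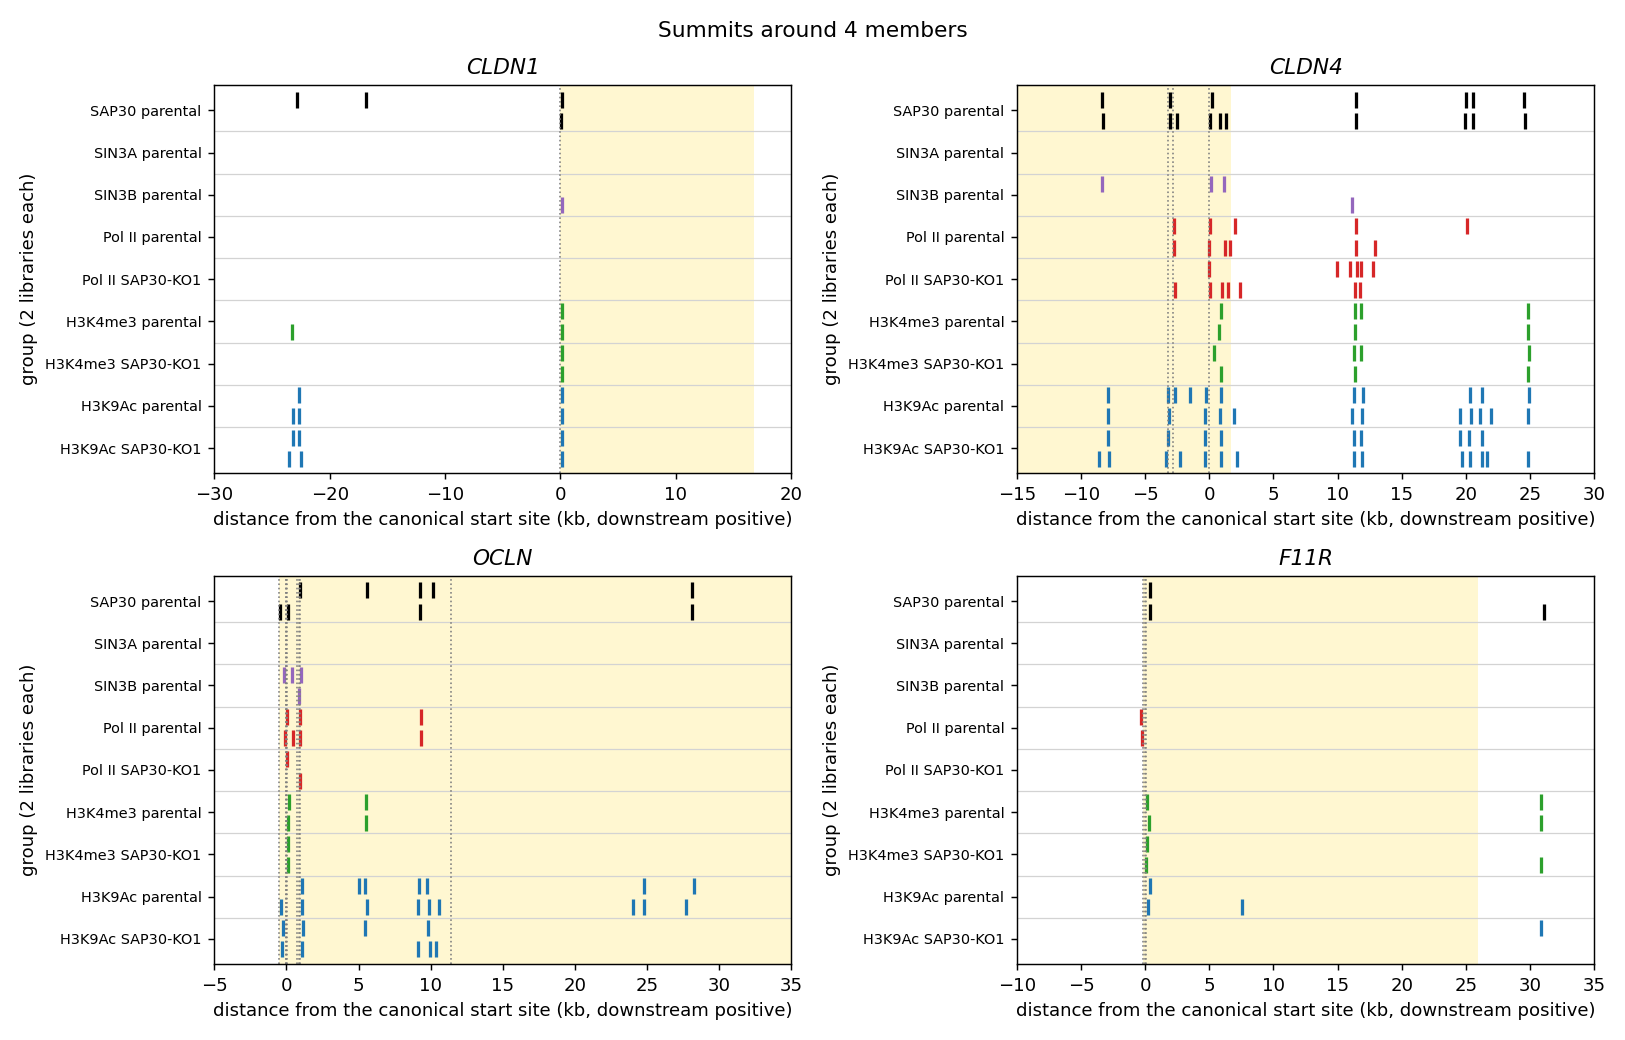
Summits (ticks) of the 18 lists around CLDN1, CLDN4, OCLN and F11R by distance from the canonical start site in kb, downstream positive, with 1 line per library and 2 libraries per group. Shading marks the annotated gene and dotted lines its start sites. OCLN lacks Pol II around 9825 bp and H3K9Ac around 27958 bp downstream in SAP30-KO1, and CLDN1 has no Pol II tick in either line.

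Among 47 other tight junction genes, 16 had no promoter peak in any list, and 14 of these were among the 19 other claudins. Both-library SAP30 peaks were present at 23 of the 47, SIN3A at 11 and SIN3B at 14. Scaffold and polarity genes carried most of them, with SAP30 at 17 of 19 and parental Pol II at 16 of 19, against 2 and 2 of 19 other claudins. These 2 were CLDN23 and CLDN6, and the CLDN6 window also holds a start site of TNFRSF12A, so its peaks cannot be assigned to the claudin. Pol II was worse in SAP30-KO1 at 6 genes, better at 2 and overlapping at 11. H3K4me3 was worse at 10, better at 5 and overlapping at 10, and H3K9Ac was worse at 7, better at 6 and overlapping at 8. LSR, a receptor that recruits proteins to corners where 3 cells meet, lost Pol II (63.8% and 76.6% in parental libraries) and H3K9Ac (71.9% and 42.2%) and kept H3K4me3, at 52.9% and 52.5% against 84% and 72.3%. It had the same pattern of presence over the 18 lists as F11R, a pattern found in 3 other protein-coding genes in all. CLDN5, the main claudin of blood vessel walls, was the one gene with a gain. H3K9Ac was listed there in SAP30-KO1 alone, at 71.3% and 72.8%.

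Genes with the same presence pattern were ordered by the mean absolute difference in rank over the lists with a peak. The pattern of CLDN1 was shared by 17 other protein-coding genes, and the closest were CCDC85A, MRAP2 and NRCAM, which differed from it by 10.4, 12.9 and 13.9 points over 11 lists. TJP1, with a peak in every list, shared its pattern with 5749 genes (28.6%). RDH10, WSB1 and PIEZO1 came closest, at 4.82, 4.9 and 5.01 points over 18 lists. The patterns of F11R and CLDN3 were rare, with 3 and 2 other genes.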

How the data were processed

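ChIP-seq summit lists of 18 MDA-MB-231 libraries were used. Per the submitters' processing notes, the tools were FastQC 0.11.2, Bowtie2 2.3.3.1, Picard and MACS2 2.1.0, with build hg19. The authors called peaks in each library by itself and deposited 1-bp summits scored by −log10 of the q-value, with a lowest score of 1.3. The control used for each list, and the depth, are not given in the sources used here. Summits were ranked within their list (ties averaged) and matched to start sites of GENCODE release 44 lifted to GRCh37 (Python 3 scripts with numpy and scipy). Sequences were read with samtools and second copies sought with minimap2. The routines were tested on simulated lists. The members, gene lists and rules were chosen with earlier results of these data known. Named were the 9 members, pathway genes that lost or gained a mark (at most 6), the 3 genes most like CLDN1 and TJP1, and genes whose start is nearest a described flanking region. PECAM1, a listed marker, was not matched in the annotation.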

Additional observations from a re-analysis of the deposited data

How the results depend on the processing

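No paired analysis was possible because no result comes from a test. The alternatives for the count of all promoter peaks were added after seeing the data. With only the annotated 5′ end of each gene, which lies far from the canonical start of CLDN4, CLDN12 and TJP1, promoter peaks fell from 121 to 69, those in both libraries from 57 to 28, worse Pol II ranks from 2 to 0, better ones from 1 to 0 and worse H3K9Ac ranks from 4 to 1, and the H3K9Ac change of CLDN12 turned to 0.305 points. With the better-ranked 50% of each list, 37 remained in both libraries, 1 gene had a worse Pol II and 0 a worse H3K4me3 rank, and 2 lost H3K4me3. Ranked among genes with a peak in all 4 libraries, 1 was worse in Pol II, 2 worse and 1 better in H3K4me3. Equal list lengths gave 1 better in H3K4me3, and a 500-bp window 0 better in H3K9Ac. Flanks of 20 and 100 kb changed the 734 summits in bodies and flanks to 361 and 1311. Leaving out 1 library at a time gave 57 to 58 peaks in both libraries. For Pol II it gave 2 to 3 worse, 1 to 1 better and 1 to 2 lost (2 without either SAP30-KO1 replicate). For H3K4me3 it gave 5 to 7 worse (7 without parental replicate 2), 0 to 2 better (2 without parental replicate 1) and 1 to 1 lost, and for H3K9Ac 4 to 5 worse, 1 to 3 better (3 without SAP30-KO1 replicate 1, 2 without parental replicate 2) and 1 to 2 lost (2 without parental replicate 1). Over all alternatives, 94 counts over the genes stayed within 1.5 times the count reported and 23 did not. The cause of these changes was not tested. With the depth unknown, an absent peak sets no limit on signal.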
